A study of Mus musculus with 24 samples.

Results

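The 10 genes described here, *Fos*, *Fosb*, *Junb*, *Egr1*, *Ier2*, *Dusp1*, *Atf3*, *Npas4*, *Arc* and *Nr4a1*, are immediate early genes and were chosen by name from the 54446 genes counted in each library. Each of them matched 1 Ensembl identifier. RNA came from 24 libraries, 1 from the secondary prosencephalon (SP) and 1 from the diencephalon, midbrain and hindbrain (DMH) of each of 12 mouse embryos at E14.5, with 3 embryos for each sex and genotype. The mutants were *Tfap2b*-/-, with a neomycin resistance cassette driven by the Pgk promoter in an exon of *Tfap2b* in all cells, and the controls were *Tfap2b*+/+ littermates from crosses of heterozygous mice. No embryo received a treatment, and the tissue was snap-frozen after dissection. Each piece holds many cell types, so in these bulk values fewer cells of a type and less RNA per cell cannot be told apart.

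Immediate early genes are transcribed within minutes of a stimulus, without the need for new protein. Calcium entry and growth factor signals reach them through kinases that act on CREB, which binds the cyclic AMP response element (CRE), and on serum response factor, which binds the CArG box. In neurons they follow synaptic activity, and in dissected tissue many of them also respond to handling, which makes their level in single libraries of interest as a sign of how a sample was treated.

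Most members encode transcription factors. *Fos*, *Fosb* and *Junb* give subunits of AP-1, *Egr1* a zinc finger factor, *Atf3* a stress-induced bZIP factor, *Npas4* a bHLH-PAS factor that responds to calcium entry in neurons, and *Nr4a1* an orphan nuclear receptor. *Dusp1* encodes a phosphatase of MAP kinases, *Arc* a protein of dendrites that acts on AMPA receptor traffic, and *Ier2* a small nuclear protein. In the RefSeq annotation on GRCm38.p6, *Arc* and *Nr4a1* lie on chromosome 15, *Junb* and *Ier2* on chromosome 8, *Fos* on chromosome 12, *Npas4* on chromosome 19 and *Dusp1* on chromosome 17.

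The table of RefSeq promoters held 7 of the 10 members, with 1 start for each. The starts used for *Fosb*, *Npas4* and *Nr4a1* lie inside the whole span that RefSeq gives these genes, so other transcripts of them begin further upstream. All 7 carried the CRE half-site TGACG on either strand in the 250 bases before the start, where 17.8% of 32851 promoters had it in a window of that length. The full CRE, TGACGTCA, which holds a half-site on each strand, stood only in *Dusp1* among these 7 (1.55% of promoters), and TATAAA, read as transcribed, only in *Fos* (7.59%). The Egr site GCGNGGGCG, on either strand, stood in *Fosb* and *Nr4a1* (4.70%), and neither the CArG box (1.47%) nor the AP-1 site TGANTCA (6.75%) had a match in these windows, both searched on either strand. The windows of *Npas4*, which differed most between SP and DMH among the 7, of *Fos*, the founding member of its family of AP-1 subunits, and of *Dusp1*, the most abundant member, are shown 5′ to 3′ on the strand of the gene. Capitals mark the CRE half-site, the full CRE and TATAAA, and CGTCA is the half-site on the other strand.
Npas4, chr19:4989972-4990221, minus strand: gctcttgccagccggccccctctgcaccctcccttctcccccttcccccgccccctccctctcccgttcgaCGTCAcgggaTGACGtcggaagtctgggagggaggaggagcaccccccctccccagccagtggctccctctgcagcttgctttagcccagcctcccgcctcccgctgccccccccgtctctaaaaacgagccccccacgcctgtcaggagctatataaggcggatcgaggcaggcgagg
Fos, chr12:85473640-85473889, plus strand: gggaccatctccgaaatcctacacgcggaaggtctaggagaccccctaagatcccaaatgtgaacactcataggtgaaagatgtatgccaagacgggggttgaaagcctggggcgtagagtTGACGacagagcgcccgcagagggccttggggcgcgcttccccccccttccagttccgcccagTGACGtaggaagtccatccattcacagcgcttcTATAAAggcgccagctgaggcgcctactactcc
Dusp1, chr17:26508473-26508722, minus strand: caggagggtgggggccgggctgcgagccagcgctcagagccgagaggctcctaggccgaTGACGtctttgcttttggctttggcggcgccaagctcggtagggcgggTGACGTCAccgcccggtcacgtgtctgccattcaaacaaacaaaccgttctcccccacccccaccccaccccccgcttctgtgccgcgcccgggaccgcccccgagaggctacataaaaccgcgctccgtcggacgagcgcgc
The half-sites of *Npas4* stood 179 and 169 bases before its start and those of *Fos* 129 and 66 bases before its start. In *Dusp1* the full CRE began 143 bases before the start and a further half-site 191 bases before it.

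Between 24.7 and 66.8 M read pairs per library were counted on genes. Levels are CPM (a gene's read pairs per M read pairs on genes, scaled by edgeR's TMM method), and 3 counts, taken as the floor of detection, corresponded to 0.0449 to 0.121 CPM before that scaling. The summed level of 8 SP marker genes was 1476 to 2047 CPM in SP and 166 to 421 CPM in DMH, and that of 8 DMH marker genes 721 to 1695 CPM in DMH and 19.6 to 172 CPM in SP. *Tfap2b* was at 50.4 to 56.6 CPM in mutant and 281 to 435 CPM in control DMH, and at 2.75 to 4.72 and 3.48 to 4.19 CPM in mutant and control SP. Both libraries labelled female control 2 had the summed Y-linked level of males (122 and 133 CPM) and *Xist* at 0.0341 and 0.0907 CPM, against 174 to 914 CPM in the other females. Female mutant 3, which the study leaves out of its genotype comparisons, had 587 CPM of 7 skeletal muscle genes in DMH, against 5.63 to 8.48 CPM in the other DMH libraries. Male SP mutant 1 had 6.41% of its counts on mitochondrial genes, against 1.72 to 2.71% elsewhere, and is shown apart below. In 4 of the 12 DMH libraries, 3 female and 1 male, 10 caudal *Hox* genes, which mark the caudal hindbrain, summed to 0.0378 to 0.246 CPM, against 237 to 406 CPM in the other 8.

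The members differed widely in level among themselves. *Dusp1* was the most abundant, with a lowest, median and highest level of 29.6, 33.3 and 36.6 CPM in SP and 19.96, 27.3 and 36.8 CPM in DMH. *Ier2* followed, and *Egr1*, *Nr4a1*, *Junb* and *Arc* stayed between 1.73 and 6.99 CPM in all 24 libraries. *Fos*, *Atf3* and *Npas4* stayed at or below 2.04 CPM, at 7 to 91 counts per library, and *Fosb* was at 2 to 36 counts, a median of 4.5, close to the floor.

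**Figure D1:**
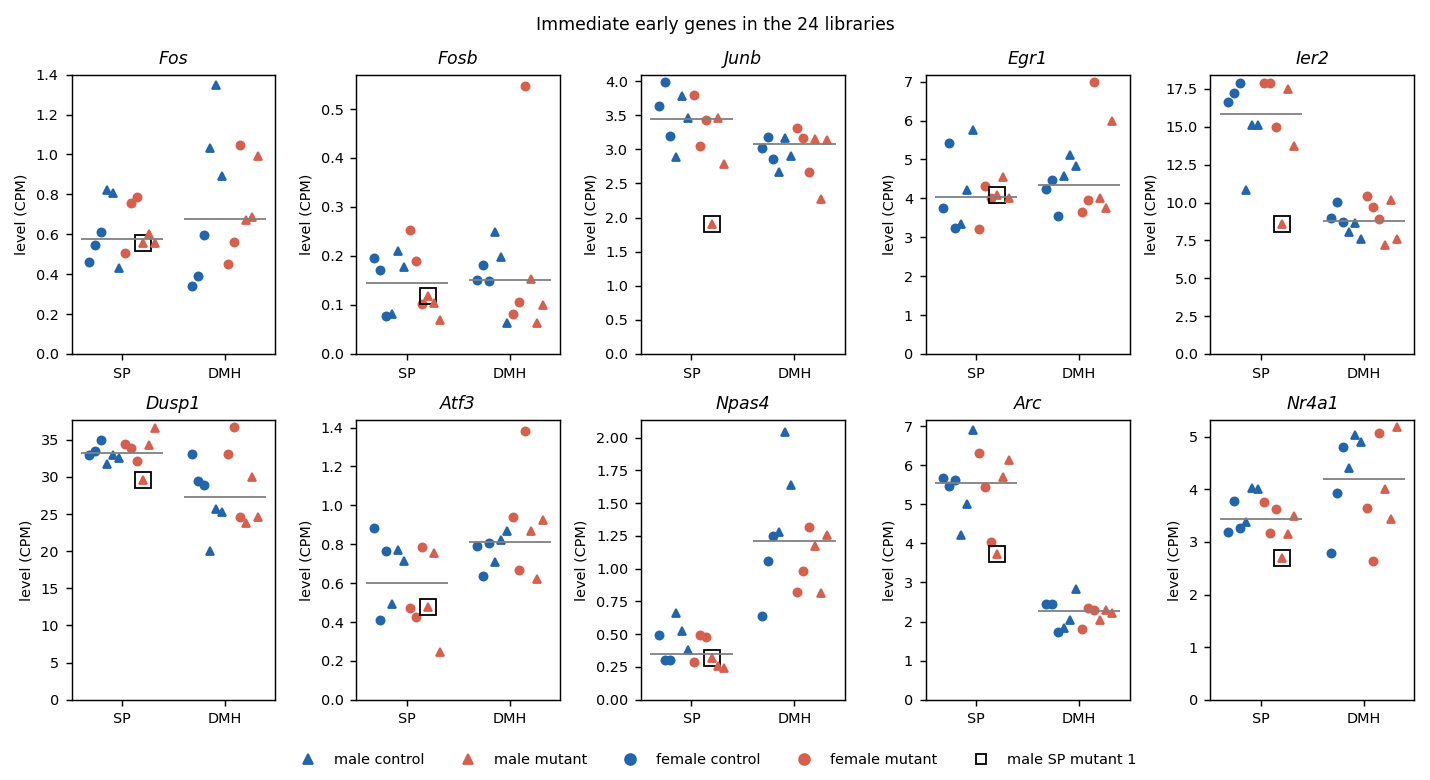
Level of each of the 10 members in CPM (y axis, from 0, a scale of its own in each panel) in the 12 SP and 12 DMH libraries, 1 point per library, with sex as shape, genotype as colour, the median of each region as a grey line and male SP mutant 1 in a square. *Arc* is the only member whose SP and DMH points do not overlap, and male SP mutant 1 is the lowest SP point in *Junb*, *Ier2*, *Dusp1*, *Arc* and *Nr4a1*.

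Per kilobase of exon, which could be computed for 8 members, the order in SP was led by *Ier2* at 10.04 ± 1.97 CPM per kb (SD, n = 12). *Arc* (1.75 ± 0.313), *Junb* (1.43 ± 0.248), *Nr4a1* (0.987 ± 0.113) and *Egr1* (0.927 ± 0.177 CPM per kb) followed. *Atf3* (0.279 ± 0.0934), *Fos* (0.264 ± 0.0588) and *Fosb* (0.0234 ± 0.00975 CPM per kb) came last. Of these neighbours, *Nr4a1* and *Egr1*, and *Atf3* and *Fos* differed by less than the SD of either over libraries. In DMH *Ier2* again led at 5.80 ± 0.715 and *Fosb* was last at 0.0272 ± 0.0210 CPM per kb, but *Arc* at 0.719 ± 0.104 stood below *Junb*, *Nr4a1* and *Egr1* (1.29 ± 0.130, 1.18 ± 0.254 and 1.02 ± 0.229 CPM per kb).

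The first question was how far a member varied between embryos of the same sex, genotype and region. The SD of log2 CPM around the 8 condition means was 0.16 for *Dusp1*, 0.22 for *Junb*, 0.25 for *Ier2*, 0.27 for *Nr4a1*, 0.28 for *Arc* and 0.31 for *Egr1*, while the median over 18114 genes was 0.21. Without male SP mutant 1 it was 0.157 for *Dusp1*, 0.179 for *Junb*, 0.173 for *Ier2*, 0.268 for *Nr4a1*, 0.255 for *Arc* and 0.321 for *Egr1*, with a median of 0.177 over 18457 genes. Over all 24 libraries the SD was larger for the members with few counts, at 0.37 for *Npas4*, 0.38 for *Fos*, 0.46 for *Atf3* and 0.75 for *Fosb*. All these values include female DMH mutant 3, which stood apart in its condition in *Fosb* (0.546 against 0.0819 and 0.105 CPM) and *Egr1* (6.99 against 3.64 and 3.97 CPM). The part of this library in the spread was not tested. At their mean counts, counting error alone gives a coefficient of variation of 18.4% for *Npas4*, 19.97% for *Fos*, 19.3% for *Atf3* and 40.5% for *Fosb*, against 3.05% for *Dusp1*. The variation that edgeR estimated beyond counting was of a like size, at a coefficient of 19.4% for *Npas4*, 20.7% for *Fos*, 23.3% for *Atf3* and 39.5% for *Fosb*, against 11.2% for *Dusp1* and a median of 13.6% over all genes. Within a condition, *Fos* ranged most in female DMH mutants, from 0.450 CPM in mutant 1 through 0.561 CPM in mutant 2 to 1.05 CPM in mutant 3. The extremes of *Fos* over all libraries, 0.340 CPM in female DMH control 1 and 1.35 CPM in male DMH control 2, differed 3.97-fold.

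No library was the highest of its region in most members. Female DMH mutant 3 led the 12 DMH libraries in 3 members, *Fosb* at 0.546 CPM, *Egr1* at 6.99 CPM and *Atf3* at 1.38 CPM, and in the other DMH libraries these reached at most 0.249, 5.98 and 0.942 CPM. The muscle and mesenchymal genes of this library stood at 587 and 3373 CPM, and their part in these 3 levels was not tested.

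Male SP mutant 1 had lower levels of 5 members than any other SP library. *Ier2* was at 8.56 CPM there and at 10.8 to 17.9 CPM (median 16.7) in the other 11. *Junb* was at 1.90 against 2.79 to 3.99 CPM, *Arc* at 3.73 against 4.03 to 6.89 CPM, *Nr4a1* at 2.70 against 3.15 to 4.03 CPM and *Dusp1* at 29.6 against 31.7 to 36.6 CPM. The other 5, *Fos* (0.555 CPM, 14 counts), *Egr1* (4.08), *Npas4* (0.317), *Atf3* (0.476) and *Fosb* (0.119 CPM), lay within the range of the other libraries. Being below the other 11 SP libraries was common in this library, as it held for 29% of 19760 genes with a mean of at least 0.1 CPM, and 24.1% were above them. Relative to the median of the others, *Ier2* stood at 51.4%, *Junb* at 55.1%, *Arc* at 66.3%, *Nr4a1* at 77.4% and *Dusp1* at 88.2%. The library had 9.98% unmapped read pairs, against 5.46 to 7.05% elsewhere, beside its mitochondrial share, and the part of these in the low levels was not tested. The DMH library of the same embryo had the lowest *Ier2* of all DMH libraries (7.22 CPM), but its *Junb* (3.15), *Arc* (2.04) and *Nr4a1* (4.004 CPM) were inside the DMH range.

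**Figure D2:**
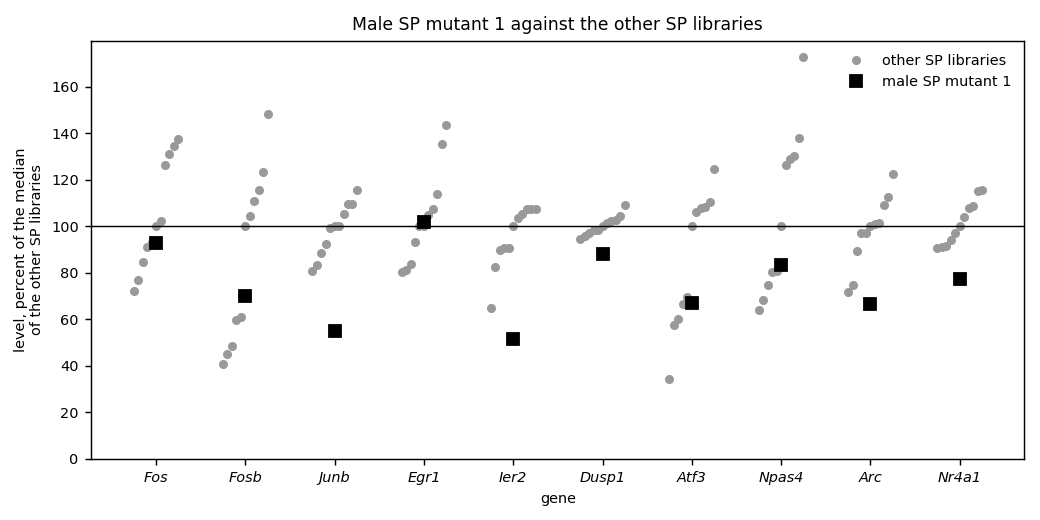
Level in male SP mutant 1 (black squares) and in the other 11 SP libraries (grey points) as a percent of the median of those 11 (y axis, from 0) for each member (x axis). The square lies below every grey point in 5 members, lowest in *Ier2* at 51.4%.

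SP and DMH of the same embryos were then compared over all 24 libraries, with differences as DMH minus SP. The fit held terms for the classes of sex and genotype but none for the embryo. Its SEs, intervals and p-values thus treat both pieces of an embryo as separate samples. By edgeR's quasi-likelihood test, 3 of the 9 members tested were called, where 36.5% of all genes tested were called. A call needed an FDR (Benjamini-Hochberg adjusted p) under 0.2 together with a log2 fold change above 0.5 in size. *Fosb* did not pass the filter on low counts here or in any other comparison. The share of members called was thus near that of all genes.

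*Arc* was higher in SP. Its lowest, median and highest levels were 3.73, 5.54 and 6.89 CPM in SP and 1.73, 2.26 and 2.82 CPM in DMH. The libraries of both regions did not overlap, as was the case for 22.3% of the 19760 genes, and all 12 embryos had more *Arc* in SP. It was 2.45-fold lower in DMH (log2 fold change -1.29, SE 0.10, adjusted p = 7.06e-11), and 1.25 to 1.33 lower on the log2 scale when single embryos were left out.

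*Ier2* was also higher in SP in all 12 embryos. It was at 8.56, 15.9 and 17.9 CPM in SP and at 7.22, 8.80 and 10.4 CPM in DMH. The regions overlapped only through male SP mutant 1. *Ier2* was 1.74-fold lower in DMH (log2 fold change -0.80, SE 0.08, adjusted p = 9.54e-09), and without male SP mutant 1, an alternative chosen after seeing the data, the log2 fold change was -0.85.

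*Npas4* was higher in DMH in all 12 embryos. Its levels were 0.244, 0.349 and 0.659 CPM in SP and 0.642, 1.21 and 2.04 CPM in DMH, and the regions overlapped between the lowest DMH library, female DMH control 1, and the highest SP library, male SP control 1. It was 2.97-fold higher in DMH (log2 fold change 1.57, SE 0.15, adjusted p = 2.75e-09). Within an embryo the log2 ratio, with 0.1 CPM added, ranged from 0.33 in female control 1 to 1.98 in male mutant 3.

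**Figure D3:**
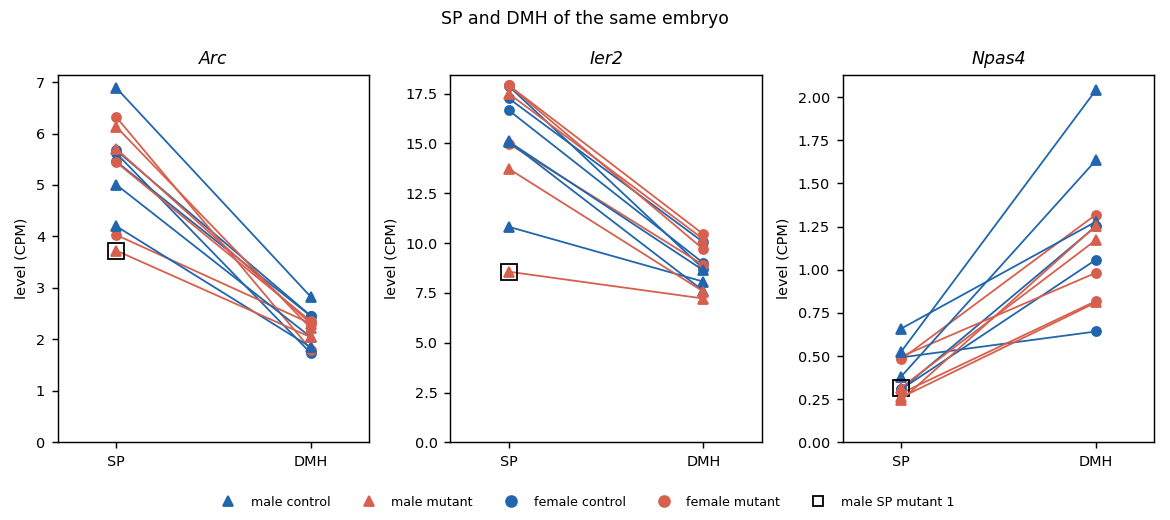
SP and DMH levels in CPM (y axis, from 0) of *Arc*, *Ier2* and *Npas4*, with a line for each of the 12 embryos, sex as shape, genotype as colour and the library male SP mutant 1 in a square. Every line falls from SP to DMH in *Arc* and *Ier2* and rises in *Npas4*.

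The other 6 members were not called. *Dusp1* (log2 fold change -0.28, adjusted p = 5.57e-04), *Atf3* (0.47, adjusted p = 0.0192), *Nr4a1* (0.25, adjusted p = 0.0316) and *Junb* (-0.16, adjusted p = 0.108) passed the FDR but not the fold threshold. *Atf3* was higher in DMH in 10 of 12 embryos, and its log2 fold change of 0.47 (95% interval 0.11 to 0.84) ranged from 0.38 to 0.56 with single embryos left out, above 0.5 without 4 of the 12 (female control 1, female control 3, male control 2 or male mutant 2). *Fos* differed by 0.23 (95% interval -0.11 to 0.58, adjusted p = 0.217) and *Egr1* by 0.13 (-0.12 to 0.37, adjusted p = 0.332), each higher in DMH in 7 of 12 embryos. The AP-1 subunits *Fos* and *Junb* and the factor *Egr1* thus did not differ past both thresholds, while *Arc*, *Ier2* and *Npas4* differed in opposite directions.

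Other genes of the same response also went both ways between the regions, where 36.5% of all genes were called. Of 37 further immediate early genes, 35 were tested, with 6 higher and 11 lower in DMH and a median log2 fold change of 0.06, beside 0.01 over all genes. The higher ones included *Rgs2* (0.95), an inhibitor of G protein signalling, *Errfi1* (0.69), an inhibitor of the EGF receptor, and *Nr4a2* (0.74), a factor of dopaminergic neurons. The lower ones included *Ier5* (-1.31), the AP-1 subunit *Jun* (-0.95) and *Nr4a3* (-1.51). Of 11 late activity response genes 5 were higher, such as *Scg2* (1.51), *Bdnf* (1.65) and *Nptx2* (1.22), and 2 were lower, *Rasgrp1* (-1.14) and *Inhba* (-1.89). Of 20 upstream regulators, *Camk4* was higher (0.58) and *Atf1* (-0.88), *Elk4* (-0.59) and *Mef2c* (-2.08) were lower. The share called was thus below that of all genes for the upstream regulators and above it for the late genes and the further immediate early genes, and was not tested against it. Marker levels of several cell types differed along with the region, as 8 neuron markers summed to 5537 to 7658 CPM in SP and 7613 to 8397 CPM in DMH, and 8 progenitor markers to 2135 to 2801 and 1349 to 2103 CPM. The 10 meningeal and mesenchymal markers summed to 157 to 722 CPM in SP and 741 to 3373 CPM in DMH, and 10 microglial markers to 51.2 to 83.9 and 91.5 to 119 CPM. Their part in the member levels was not tested.

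Genes of handling stress were examined beside the members. Of 10 heat shock genes, beside the 36.5% of all genes called, 3 were higher in DMH, *Hspa1a* by 2.00, *Hspa1b* by 1.00 and *Hspb1* by 1.13 on the log2 scale, and none was lower. Of 12 hypoxia genes *Ankrd37* was higher (0.86) and *Ndrg1* (-1.78), *Ddit4* (-0.76) and *Adm* (-0.55) were lower.

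Whether an embryo with a high SP level also had a high DMH level was asked for each member over the 12 embryos, with permutation tests (two-sided) and Benjamini-Hochberg adjustment over 10 members. *Ier2* passed, with Pearson r = 0.77 (p = 0.00106, adjusted p = 0.0106, permutation) and Spearman rho = 0.82 (p = 0.00174, adjusted p = 0.0174, permutation). Without male mutant 1, the embryo with the lowest *Ier2* in both regions, r was 0.70 and rho 0.76 (adjusted p = 0.115 and 0.0890, permutation). Without the 2 embryos farthest from the SP median, r was 0.81 (adjusted p = 0.0579, permutation). Centred on the means of sex and genotype, r was 0.67 and rho 0.41 (adjusted p = 0.162 and 0.515, permutation), so the call was lost. Within classes of 6 embryos the r of *Ier2* was 0.56 in controls, 0.88 in mutants, 0.47 in females and 0.69 in males, with permutation p-values adjusted over the members of 0.351, 0.0382, 0.547 and 0.431. *Junb* had r = 0.98 and rho = 1 in the 6 controls (adjusted p = 0.0150 and 0.0280, permutation). In the mutants it had r = -0.32 and rho = 0.029, and over all 12 embryos r = -0.05 and rho = 0.39. Male mutant 1, lowest in SP *Junb*, set the sign of the last r, as without it r was 0.21 and rho 0.51 (adjusted p = 0.611 and 0.284, permutation). *Fos* came next over all 12 with r = 0.57 and rho = 0.64 (p = 0.0568 and 0.0295, adjusted p = 0.284 and 0.148, permutation), and the r of the other 8 lay between -0.26 and 0.46.

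The main comparison of the design, *Tfap2b*-/- against *Tfap2b*+/+, called no member. By edgeR's quasi-likelihood test 0 of 9 members passed in male SP (0% of all genes tested called), female SP (0.0181%), male DMH (0.0236%) and female DMH (0.00596%), with female mutant 3 left out. With both sexes fitted together, 0 of 9 passed in SP (0% called) and in DMH (0.0523% called). DESeq2 and edgeR's likelihood ratio test called 0 members in each of these as well. At an unadjusted p under 0.05 the number of members was 1 in male SP, 1 in male DMH and 1 in DMH of both sexes, each time *Npas4*, and 0 in the other 3. Over all genes it was 605 of 16562 in male SP, 490 of 16962 in male DMH and 2590 of 17223 in DMH of both sexes. In the last of these the share of members was below that of all genes.

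*Npas4* was at 0.659, 0.525 and 0.381 CPM in male SP controls and at 0.317, 0.260 and 0.244 CPM in male SP mutants. It was at 1.28, 2.04 and 1.63 CPM in male DMH controls and at 1.17, 0.810 and 1.26 CPM in male DMH mutants. Mutants lay below controls in both regions of the same 6 male embryos without overlap, which held for 6.23% of the 19760 genes in male SP and 3.01% in male DMH. The log2 fold change was -0.92 (95% interval -1.75 to -0.09, adjusted p = 0.967 by edgeR) in male SP and -0.63 (-1.17 to -0.10, adjusted p = 0.870 by edgeR) in male DMH. In females it was 0.13 (-0.79 to 1.05) in SP and -0.13 (-0.89 to 0.64) in DMH. These values rest on 7 to 24 counts per library in male SP and 26 to 77 in male DMH. The lowest male SP value came from mutant 3, a library with less of several marker lists than any other SP library, as choroid plexus markers summed to 42.8 against 212 to 561 CPM, meningeal and mesenchymal markers to 157 against 497 to 722 CPM and endothelial and pericyte markers to 302 against 384 to 446 CPM. Without it the log2 fold change in male SP was -0.82, and without male SP mutant 1 it was -1.02. The lowest male DMH value, 0.810 CPM in mutant 2, came from the only male DMH library nearly without caudal *Hox* transcripts (0.218 CPM, against 309 to 406 CPM in the other 5), and without it the log2 fold change in male DMH was -0.48. The part of these markers in the *Npas4* values was not tested.

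Groups also did not overlap in 3 other cases, and none was called. *Ier2* was at 16.7, 17.3 and 17.9 CPM in female SP controls and at 17.9 CPM in both mutants tested (log2 fold change 0.05, adjusted p = 1.00), where 8.2% of genes lay higher in mutants without overlap. *Dusp1* was at 33.0, 29.5 and 28.9 CPM in female DMH controls and at 33.1 and 36.8 CPM in mutants (0.21, 95% interval -0.01 to 0.43), where that share was 11.5%. The caudal *Hox* genes moved with genotype in these libraries, as they summed to 0.246 and 0.105 CPM in both mutants and to 0.0378, 237 and 402 CPM in the controls, and the control at 33.0 CPM of *Dusp1* was the one without them. Progenitor markers summed to 1949 and 2103 CPM in the mutants against 1590 to 1831 CPM in the controls, and choroid plexus markers to 227 and 397 against 530 to 591 CPM, also without overlap. The part of these 3 lists in the *Dusp1* values was not tested. *Fosb* was at 0.151, 0.181 and 0.149 CPM in female DMH controls and at 0.0819 and 0.105 CPM in mutants, where 13.6% of genes lay lower, but these values are 2 to 6 counts.

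The intervals of the other members tested included 0 in all 4 comparisons within 1 sex and region. *Fos* had a log2 fold change of -0.52 (95% interval -1.10 to 0.06) in male DMH, where controls were at 1.03, 1.35 and 0.892 CPM and mutants at 0.670, 0.686 and 0.991 CPM. *Atf3* had -0.63 (-1.45 to 0.19) in female SP and -0.47 (-1.10 to 0.17) in SP of both sexes. With female mutant 3 included these became -0.30 and -0.32, and with the replicate number as a block, which pairs no animals, the second became -0.0077. In male SP, where the library male SP mutant 1 takes part, *Junb* had -0.30 and *Ier2* -0.04, and without that library *Junb* had -0.091 (adjusted p = 0.880 by edgeR) and *Ier2* 0.21 (adjusted p = 0.658 by edgeR). The interaction of genotype and region called 0 of 9 members (0.00565% of all genes called), with 0 members at an unadjusted p under 0.05 and 0 by DESeq2 and the likelihood ratio test. Its largest value among the members was 0.51 for *Atf3* (95% interval -0.16 to 1.18), which became 0.30 without male mutant 3 and 0.82 without male mutant 2. None of the listed further immediate early, late response, upstream, heat shock and hypoxia genes was called in any of the genotype comparisons.

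**Figure D4:**
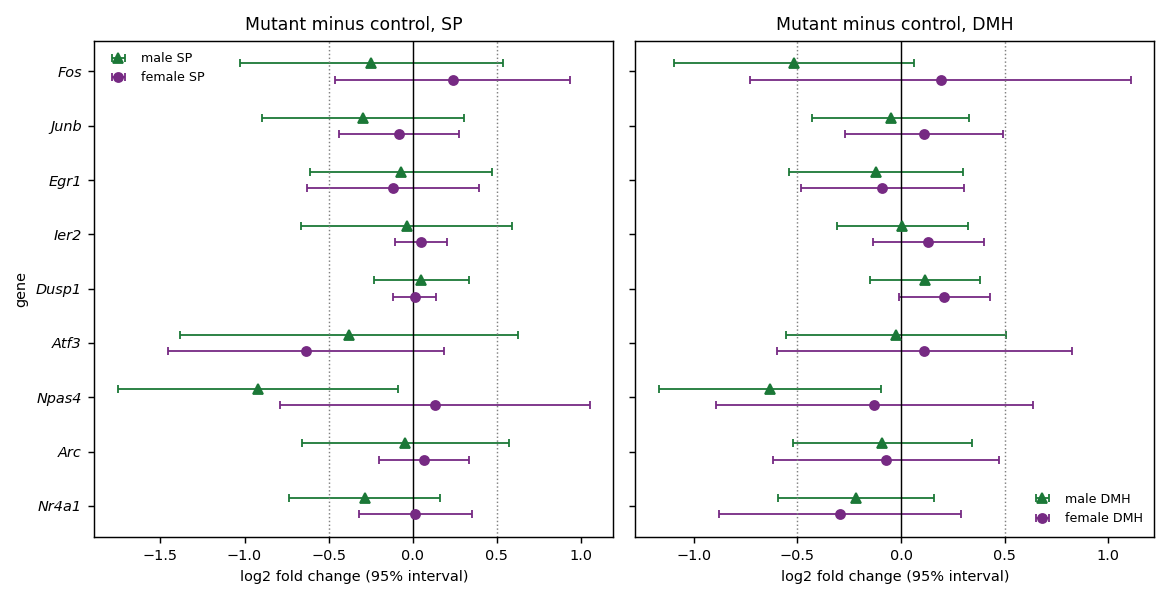
Log2 fold change of mutants over controls with its 95% interval (x axis) for the 9 members tested (y axis), in SP on the left and DMH on the right, for males (green triangles) and females without mutant 3 (purple circles), with dotted lines at 0.5 and -0.5. The intervals leave out 0 only for *Npas4* in male SP and male DMH, and no point passed the FDR.

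Libraries labelled male and female differed in the DMH level of some members. This comparison, sex as the other term of the fit of both genotypes, was chosen after the values were seen, and 2 of 9 members were called, both higher in males, where 11% of all genes were called and 8.93% were higher in males. *Fos* was at 0.340, 0.393, 0.596, 0.450 and 0.561 CPM in the DMH libraries labelled female that were tested and at 1.03, 1.35, 0.892, 0.670, 0.686 and 0.991 CPM in those labelled male. By label they did not overlap, as for 1.5% of the 19760 genes. The value of 0.393 CPM came from female DMH control 2, which carried Y-linked transcripts and nearly no *Xist*. It lies within the range of the other females tested, so grouped by these transcripts the sexes overlapped in *Fos*. Its log2 fold change was 0.98 (SE 0.23, adjusted p = 0.0151 by edgeR). *Npas4* was at 0.642 to 1.25 CPM (median 0.983) in females and at 0.810 to 2.04 CPM (median 1.27) in males (0.54, SE 0.21, adjusted p = 0.0622 by edgeR). *Dusp1* went the other way, at 28.9 to 36.8 CPM (median 33.0) in females and 19.96 to 30.0 CPM (median 24.9) in males, but its log2 fold change of -0.39 (SE 0.08, adjusted p = 0.0142 by edgeR) did not reach the fold threshold.

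These calls rested on which libraries were used. Female DMH mutant 3, at 1.05 CPM of *Fos*, 1.32 CPM of *Npas4* and 24.6 CPM of *Dusp1*, lay among the males, and with it 0 of 9 members were called (*Fos* 0.65, adjusted p = 0.201 by edgeR). Without the library labelled female DMH control 2, which carried Y-linked transcripts, *Fos* had 0.89 (adjusted p = 0.0345 by edgeR) and *Npas4* 0.53 (adjusted p = 0.111 by edgeR). A fit with this library counted as male was not run. Without female DMH control 1 or male DMH control 2, 1 member, *Fos*, was called. In SP 0 of 9 members were called between the sexes by edgeR's quasi-likelihood test, DESeq2 or the likelihood ratio test (5.43% of all genes called by the first). Among them *Ier2* alone had an unadjusted p under 0.05 by the quasi-likelihood test (log2 fold change -0.37, adjusted p = 0.146). Over all genes 4110 of 16973 had such a p, a larger share than among the members.

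**Figure D5:**
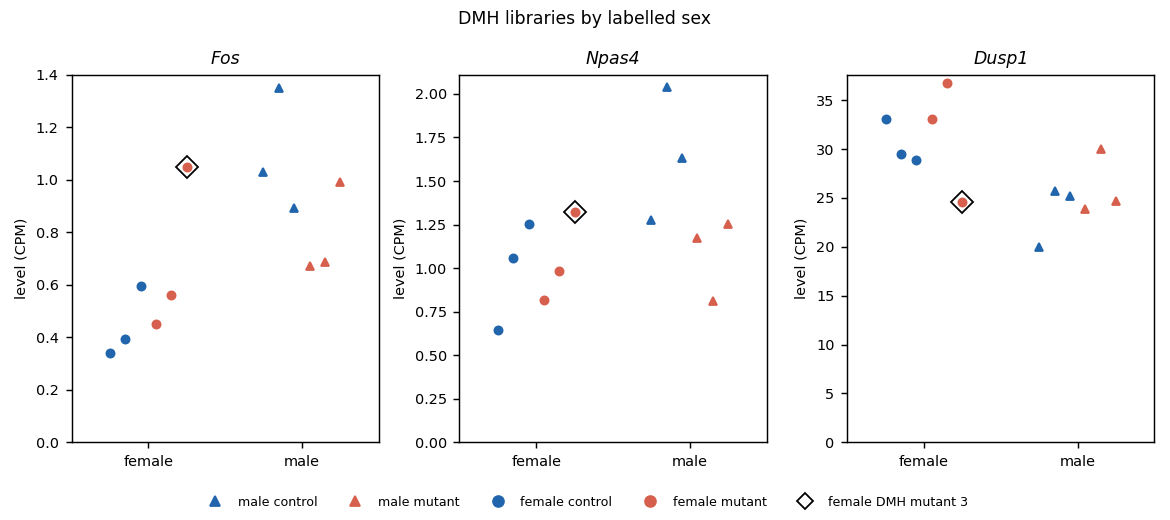
Level in CPM (y axis, from 0) of *Fos*, *Npas4* and *Dusp1* in the 12 DMH libraries by labelled sex (x axis), 1 point per library, with genotype as colour and female DMH mutant 3 in a diamond. For *Fos* all 6 male points lie above the 5 female points other than the diamond, and the diamond lies among the male points in all 3 genes.

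The level of caudal *Hox* genes moved with sex, with genotype in female DMH and with these members. In the 4 DMH libraries with nearly no caudal *Hox* transcripts, *Npas4* was at 0.642 to 0.983 CPM and in the other 8 at 1.06 to 2.04 CPM. *Nr4a1* was at 2.63 to 3.64 against 3.93 to 5.19 CPM, and *Dusp1* at 30.0 to 36.8 against 19.96 to 29.5 CPM. These 3 of 10 members did not overlap between the 2 kinds of library, as was the case for 18.3% of the 19760 genes, while *Fos* did (0.340 to 0.686 against 0.393 to 1.35 CPM). Blood markers (783 to 1665 CPM in the 5 females, 805 to 1098 CPM in males), choroid plexus markers (227 to 591 and 531 to 782 CPM) and progenitor markers (1590 to 2103 and 1349 to 1907 CPM) also moved with sex in DMH. So did the SP markers (262 to 421 and 166 to 364 CPM) and the DMH markers (1156 to 1695 and 820 to 1231 CPM). The part of all of these in the member levels was not tested. In DMH of the 35 further immediate early genes tested, 3 were higher in males, *Fosl2* (0.51), *Egr3* (0.56) and *Egr2* (1.05), a share near the 8.93% of all genes that were higher in males.

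The genes whose pattern over 23 libraries, without male SP mutant 1, was most like that of *Fos* were ranked by Pearson r of log2 CPM centred on the 8 condition means, among 14396 genes with a mean of at least 1 CPM. They were *Zfp109* (r = 0.84), *Grk4*, *Tmem181b-ps*, *Casz1*, *Sulf2*, *Rnf6*, *Ggcx*, *Kcnab3*, *Cers4* and *Tdrd7* (r = 0.80), and 7 of these 10 were also among the first 10 over all 24 libraries. Of the other members, 6 passed this minimum and none of them was among the 10, while *Fosb*, *Atf3* and *Npas4* were not ranked. The r with *Fos* was 0.49 for *Nr4a1*, 0.28 for *Egr1*, -0.26 for *Junb*, -0.33 for *Ier2*, -0.46 for *Dusp1* and -0.47 for *Arc*. *Fos* itself rests on 9 to 69 counts per library, and the libraries share depth and dissection, so these values describe the 23 libraries only.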

How the data were processed

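The deposited files hold, for each of 24 libraries, raw counts of read pairs per gene from STAR, and the submitters' processing notes name cutadapt 2.4, STAR 2.6.1d and mm10. The authors did not normalize these counts, and the annotation release is not given in the sources used here. The libraries were polyadenylated, stranded and paired-end. The column for the dUTP strand was used, and per-gene values leave out lines that name no gene, which held 5.46 to 9.98% (unmapped), 4.96 to 7.85% (multimapping), 4.68 to 7.46% (no gene) and 1.10 to 1.62% (ambiguous) of fragments. PCR copies are not told apart, so the floor of 3 counts and counting errors cover counting only. Of 54446 identifiers 54409 matched a symbol.

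The members and lists were chosen with earlier results of these data known. All 10 members are named. Of the other lists at most 3 genes per direction are named, by smallest p. Comparisons were fitted over all genes with edgeR 4.0.16 in R 4.3.3 (TMM, filterByExpr, robust quasi-likelihood test, Benjamini-Hochberg adjustment) at the study's thresholds for FDR (0.2) and for the size of the log2 fold change (0.5). SP and DMH of 1 number are pieces of 1 embryo, and in 11 of 12 embryos their deviations from the condition means correlated over 0.1 (r 0.04 to 0.56). Control and mutant with the same number share only that number. The replicates of a condition are separate embryos. The spread used log2 CPM with a prior count of 0.5, embryo ratios and correlations added 0.1 CPM, and permutation tests used 100000 resamples. The lowest chi-square per gene between 2 libraries of a condition was 9.62, so none was a copy. With 200 genes simulated at a 2-fold change, the test found 159 in female DMH (28 false calls, 16773 genes), 181 in male DMH (35, 16962 genes), 183 in DMH of both sexes (23, 17223 genes), 191 between regions (5, 17620 genes) and 153 in the interaction (18, 17684 genes).

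Alternatives were RLE size factors, no filter, at least 10 counts in every library, unstranded counts, DESeq2 1.42.0, the likelihood ratio test, an FDR under 0.05, no fold threshold, 1 fit over all 8 conditions, female mutant 3 included, a block, and each replicate left out. Positions and promoters are RefSeq's on GRCm38.p6, exon lengths GENCODE vM21's. *Dusp1* and *Npas4*, with other identifier versions there, have no value per kb. Plots were made in matplotlib 3.10.9 (Python 3.11.15).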

Additional observations from a re-analysis of the deposited data

Results flagged for a closer look

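*Fosb* in female DMH mutant 3 stood far from the other libraries of its group. It was at 0.546 CPM (36 counts), against 0.0623 to 0.152 CPM in the other 5 DMH mutant libraries, and its gap to the nearest of them was 0.814 of the range of the 6, above Dixon's critical value of 0.625. It was the only case among the 40 groups of 6 libraries examined (10 members, SP and DMH, control and mutant), and chance alone gives about 1 in 20 such groups.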

How the results depend on the processing

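In the genotype comparisons and the interaction the count of members called stayed at 0 under every alternative run. Over all genes the count in female DMH was 1 by the quasi-likelihood test used here, 76 by DESeq2 and 104 by the likelihood ratio test, and reached 535 under the alternatives. The study reports more genes in female DMH than the quasi-likelihood test called at the same thresholds, and the cause was not tested. In SP of both sexes, where 0 genes were called and 861 had an unadjusted p under 0.05, DESeq2 called 27 and the likelihood ratio test 28. In male SP, with 605 at that p, they called 7 and 20. Between regions 3 members were called under most alternatives, 7 with no fold threshold (where 14230 genes were called, against 6425), 2 with at least 10 counts in every library, where *Npas4* was not tested, and 3 to 4 with single embryos left out, the addition being *Atf3* without female control 1, female control 3, male control 2 or male mutant 2. Between the sexes in DMH the count of 2 became 1 at an FDR under 0.05, 6 with no fold threshold, 1 with at least 10 counts in every library, 0 with female mutant 3 included and 1 to 2 with single replicates left out. In SP it became 1 with no fold threshold. *Ier2* in female SP turned to -0.034 with female mutant 3 included, and *Npas4* in female DMH to 0.10. With single replicates left out, *Ier2* in male SP ranged from -0.28 to 0.21, *Npas4* in female SP from -0.36 to 0.43 and *Npas4* in female DMH from -0.34 to 0.077, and the cause was not tested. The count of members whose SP and DMH levels were related, 1, became 0 when centred on the means of sex and genotype and 0 to 1 with single embryos left out. The median SD of the members was 0.29 without male SP mutant 1.

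With SP and DMH of an embryo as a replicate block, 3 members were called between regions, the same 3 as without it, and 0 in the interaction. With the shared number of control and mutant as a block the count stayed at 0 in all 6 genotype comparisons, with 164 genes called in DMH of both sexes against 9. The numbers pair no animals, and 5 of 12 such pairs correlated over 0.1 (r -0.17 to 0.60). Under this block *Npas4* turned to -0.017 in female SP and to 0.11 in female DMH. Between the sexes the block gave 0 members and 0 genes in DMH, with *Npas4* at -0.47, and *Ier2* at 0.014 in SP.

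Over all genes the counts of the quasi-likelihood test used here, given in brackets, also moved to 0 to 71 in female SP (3), 2 to 17 in male DMH (4), 2 to 531 in DMH of both sexes (9), 1 to 6 in the interaction (1), 0 to 3951 between the sexes in SP (922) and 0 to 9614 in DMH (1892, and 546 with female mutant 3 included). *Fosb* did not pass the filter on low counts and was not tested. Of the 9 members tested, *Fos*, *Atf3* and *Npas4* had the fewest counts. Their 95% intervals were the widest of the 9 in each of the 4 comparisons within 1 sex and region. The part of depth in these widths was not tested.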
